A study of Xenopus laevis with 20 samples.

Results

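Ventral tissue of *Xenopus laevis* gastrulae that expressed Noggin was set beside control ventral tissue. Of 15491 probe sets, 90 were at least 1.5-fold higher with Noggin in both late gastrula clutches, and differed little on average over the early clutches. They were chosen by the **Nog** and **Ven** values of the arrays themselves, so the differences between these conditions are given as a description and were not tested. Of the 15491 probe sets, 107 passed the limit in clutches 3 and 4. Of these, 14 were set aside because their mean difference at stage 10 lay outside -0.3 to 0.3 on the log2 scale, all 14 of them above it. Another 3, for *fzd7.L* and *rps6kb1.S*, were left out by the first letters of their symbols alone. Symbols that began with *fox*, *sox*, *hox*, *fzd*, *mix*, *zic*, *krt*, *cdk*, *mcm*, *ccn*, *rpl* or *rps* could not be members. In the opposite direction 18 probe sets were at least 1.5-fold lower in both clutches. The 90 members held 71 probe sets with 1 gene symbol, 4 with several and 15 with none, and the named ones belonged to 74 genes once the .L and .S copies (homeologs) of this tetraploid-derived genome were joined.

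Embryos were injected into the marginal zone of a ventral blastomere at the 4-cell stage and bisected at stage 10 (clutches 1 and 2) or stage 11.5 (clutches 3 and 4), and each array measured RNA of 10 pooled explants, each the ventral or dorsal part of an embryo. Every embryo received *eGFP* mRNA as a tracer. **Ven** and **Dor** are the ventral and dorsal explants of embryos that received *eGFP* alone, and in a clutch both came from the same embryos. **Nog**, **Dkk** and **Nog+Dkk** are ventral explants of embryos that also received plasmid DNA for *noggin*, *dkk-1* or both, which is transcribed only once the zygotic genome is active and reaches a mosaic of cells. There were 20 arrays, 1 for each of the 5 conditions in each of the 4 clutches, so that every condition had 2 clutches at each stage. Noggin binds and blocks BMP ligands, and Dkk-1 blocks Wnt signaling through its co-receptors. The dorsal organizer secretes both, and BMP signaling on the ventral side directs mesoderm and ectoderm to ventral and epidermal fates. In this period the embryo also exchanges the messages stored in the egg for those of its own genome, and the cell cycle lengthens.

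Median intensities of the arrays lay between 99.4 and 118.1, an evenness that follows from the quantile normalization of the deposited values. The conditions matched their labels. The *nog.L* probe set was higher in **Nog** than in **Ven** in all 4 clutches, by 0.46 to 0.80 log2 units. In clutches 3 and 4 it was also above **Ven** in **Dkk**, which received no *noggin* plasmid. It read 4.35 and 5.15 in **Ven**, 4.75 and 5.36 in **Dkk**, and 5.16 and 5.61 in **Nog**. The *dkk1.S* probe set read 7.32 to 8.51 in **Dkk** and 5.16 to 6.08 in **Ven**. Organizer markers (18 probe sets) were higher in **Dor** than in **Ven** for 17 of 18 in both late clutches, and ventral markers (20 probe sets) were lower for 20 of 20 in clutch 3 and 18 of 20 in clutch 4. Explants are mixed tissue, so that a change in the number of cells of a type and a change of RNA per cell cannot be told apart in any value below.

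The late difference was of moderate size and was larger in clutch 4. In clutch 3 the members' log2 **Nog** minus **Ven** differences ran from 0.59 to 1.90 with a median of 0.70, and in clutch 4 from 0.59 to 1.66 with a median of 0.92. The difference was larger in clutch 4 for 64 of 90 members. Over the 2 clutches, 23 members averaged at least 1 log2 unit and 6 reached 1 in each. The corresponding medians at stage 10 were 0.02 in clutch 1 and 0.20 in clutch 2, where 73 of 90 members were above 0. The rule only asked for a small mean of these clutches. **Ven** was the lowest of the 5 conditions for 11 members in clutch 1 and for 50 in clutch 2 (22.5% and 18.6% of all probe sets). Across all probe sets the median difference stayed between -0.04 and 0.00 in the 4 clutches.

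The rule asked for **Nog** above **Ven** and so largely fixed which of the 5 conditions could be lowest or highest at stage 11.5, and the order is given as a description. **Ven** was the lowest for 85 of 90 members in clutch 3 and for 88 of 90 in clutch 4 (19.9% and 23.0% of all probe sets), and for 83 in both. **Nog** was the highest for 85 members in clutch 3 but for 51 in clutch 4 (24.8% and 21.9% of all probe sets), where **Nog+Dkk** was the highest for 38 (15.8%). Both orders held in both clutches for 43 members. The members' median log2 intensity in **Ven** was 6.37 in clutch 3 and 6.68 in clutch 4, against 7.13 and 7.62 in **Nog**. **Dkk** had medians of 6.68 and 7.21, **Nog+Dkk** of 6.70 and 7.60, and **Dor** of 6.73 and 6.99. From stage 10 to stage 11.5 the members' median change was -0.80 in **Ven** and 0.06 in **Nog**.

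**Figure D1:**
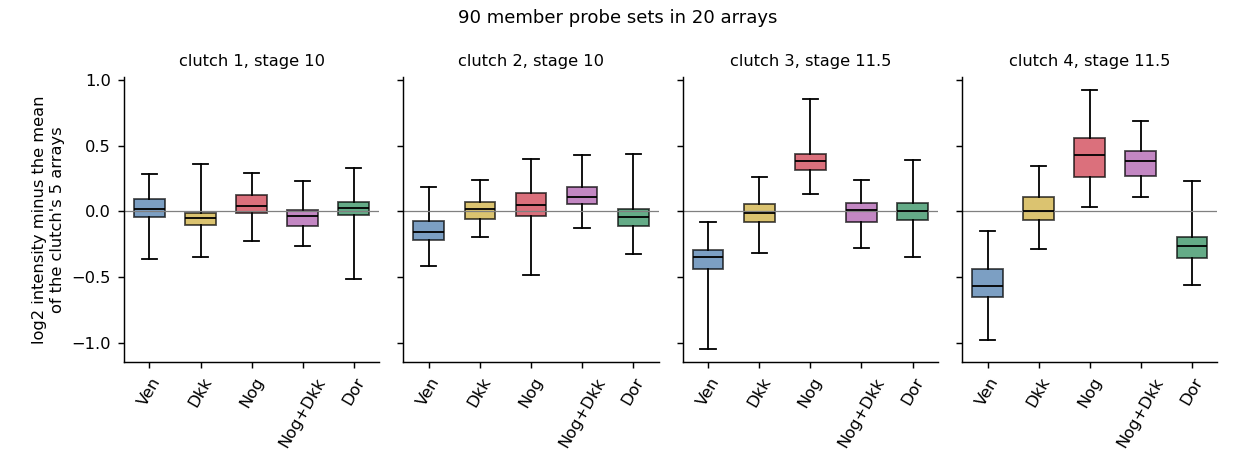
Log2 intensity of the 90 members minus the mean of the 5 arrays of the same clutch (y axis), for the 5 conditions (x axis) of each clutch, with boxes from the lower to the upper quartile of the members, the median as a line and whiskers to the lowest and highest member. At stage 11.5 the **Ven** boxes lie lowest, with medians of -0.34 and -0.56, and the **Nog** boxes have medians of 0.39 and 0.43, while **Nog+Dkk** lies at 0.01 in clutch 3 and 0.39 in clutch 4.

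The other conditions also lay above **Ven** for most members. The low **Ven** values that chose the members enter these differences too, so that values above 0 follow in part from the choice. In both late clutches 88 of 90 members were above 0 in **Dkk**, 88 in **Nog+Dkk** and 85 in **Dor**, against 22.7%, 21.2% and 26.1% of all probe sets. In clutch 3 the median member reached 48.9% of its **Nog** minus **Ven** difference in **Dkk**, 50.5% in **Nog+Dkk** and 51.0% in **Dor**. In clutch 4 the shares were 58.3% in **Dkk**, 96.5% in **Nog+Dkk** and 28.6% in **Dor**. These comparisons share their control arrays and were not tested.

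The largest late difference was that of *slbp.L*, which encodes the stem-loop binding protein that grips the 3' end of replication-dependent histone messages. On the clutch 3 arrays **Nog** read 9.74, **Nog+Dkk** 9.07, **Dor** 8.94, **Dkk** 8.83 and **Ven** 7.84 in log2 intensity. On those of clutch 4 **Nog** read 10.23, **Nog+Dkk** 10.27, **Dor** 9.20, **Dkk** 9.54 and **Ven** 8.65. **Ven** was the lowest array of each clutch, and **Nog** lay 1.90 and 1.58 above it. At stage 10 the 10 arrays had lain between 9.11 and 9.77.

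The members named below are ordered by role for description only. Some of them handle or translate RNA. *eif3a.S*, a subunit of the translation initiation factor eIF3, read 5.47 in **Ven** and 6.27 in **Nog** in clutch 3, and 5.63 and 7.11 in clutch 4. *larp1b.L*, a La-related RNA-binding protein, read 5.35 and 6.05 in clutch 3 and 5.69 and 7.20 in clutch 4. *pabpc1.S*, the cytoplasmic poly(A)-binding protein, read 6.63 and 7.35 in clutch 3 and 6.79 and 8.23 in clutch 4. For all of these the difference in clutch 4 was the larger. The RNA helicases *dhx33.L* (0.62 and 1.38 in clutches 3 and 4) and *ddx3x.L* (0.62 and 1.13) followed the same order, as did *nup153.L*, a protein of the nuclear side of the nuclear pore, with 0.90 and 1.66.

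*tyk2.L*, a signaling kinase of the JAK family that acts under cytokine receptors, read 6.60 in **Nog**, 5.71 in **Ven**, 6.27 in **Dor**, 6.29 in **Dkk** and 6.19 in **Nog+Dkk** in clutch 3, and 7.45, 6.0, 6.28, 6.59 and 7.21 in the same order in clutch 4. *smad1.L* encodes the protein that carries the BMP signal to the nucleus, the pathway that Noggin blocks at its ligand. It read 8.75 in **Nog**, 8.05 in **Ven**, 8.17 in **Dor**, 8.39 in **Dkk** and 8.37 in **Nog+Dkk** in clutch 3, and 9.0, 8.40, 8.41, 8.86 and 9.18 in clutch 4. The **Ven** array was again the lowest in each clutch, and **Dor** lay next to it. The other copy of the gene did not share the difference, since the 2 probe sets of *smad1.S* were at 0.11 and -0.06 in clutch 3 and at 0.03 and -0.30 in clutch 4. *ets1.L*, a transcription factor that acts downstream of MAP kinases, differed by 0.72 and 0.68.

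*mycl* was the only gene with 2 member probe sets, 1 for each homeolog. It encodes L-Myc, a transcription factor of the Myc family. The *mycl.S* probe set read 7.0 in **Ven** and 7.62 in **Nog** in clutch 3 and 7.5 and 8.72 in clutch 4, and the *mycl.L* probe set read 8.29 and 8.96 in clutch 3 and 8.93 and 9.73 in clutch 4. A second probe set of *mycl.S* differed by -0.14 and 0.17.

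Other named members act in the cell cycle or on chromatin. *cdc25a.L*, the phosphatase that activates cyclin-dependent kinases, read 8.28 in **Nog**, 7.27 in **Ven**, 7.77 in **Dor**, 7.76 in **Dkk** and 7.78 in **Nog+Dkk** in clutch 3, and 8.58, 7.58, 7.85, 8.29 and 8.62 in clutch 4. *cenpn.L*, a centromere protein, differed between **Nog** and **Ven** by 0.66 and 1.11, and *smc6.1.L*, of the SMC5/6 complex that guards chromosome structure, by 0.64 and 0.80. *kdm3a.S*, a histone demethylase, read 7.26 in **Ven** and 7.95 in **Nog** in clutch 3, and 7.76 in **Ven** and 8.96 in **Nog** in clutch 4. *hells.L*, a helicase of the SNF2 family needed for DNA methylation in the mouse, differed by 1.06 and 1.00, nearly the same in both clutches.

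The remaining leading members had varied roles. They were *usp25.L*, a deubiquitinase (0.88 and 1.36), *tp53bp2.L*, a p53-binding protein (0.61 and 1.58), *acadl.L*, a mitochondrial enzyme of fatty acid oxidation (1.09 and 1.07), *eml2.L*, a microtubule-binding protein (1.04 and 1.1), and *sptan1.L*, the alpha chain of spectrin (0.87 and 1.28). The difference was larger in clutch 4 for all of these except *acadl.L*. At the edge of the set lay *qsox2.S* (0.59 and 1.00) and *lman1.S* (0.59 and 0.74) just inside the limit, and *ddx18.L* (0.58 and 0.84) and a probe set shared by *src.L* and *src.S* (0.58 and 0.78) just outside it.

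**Figure D2:**
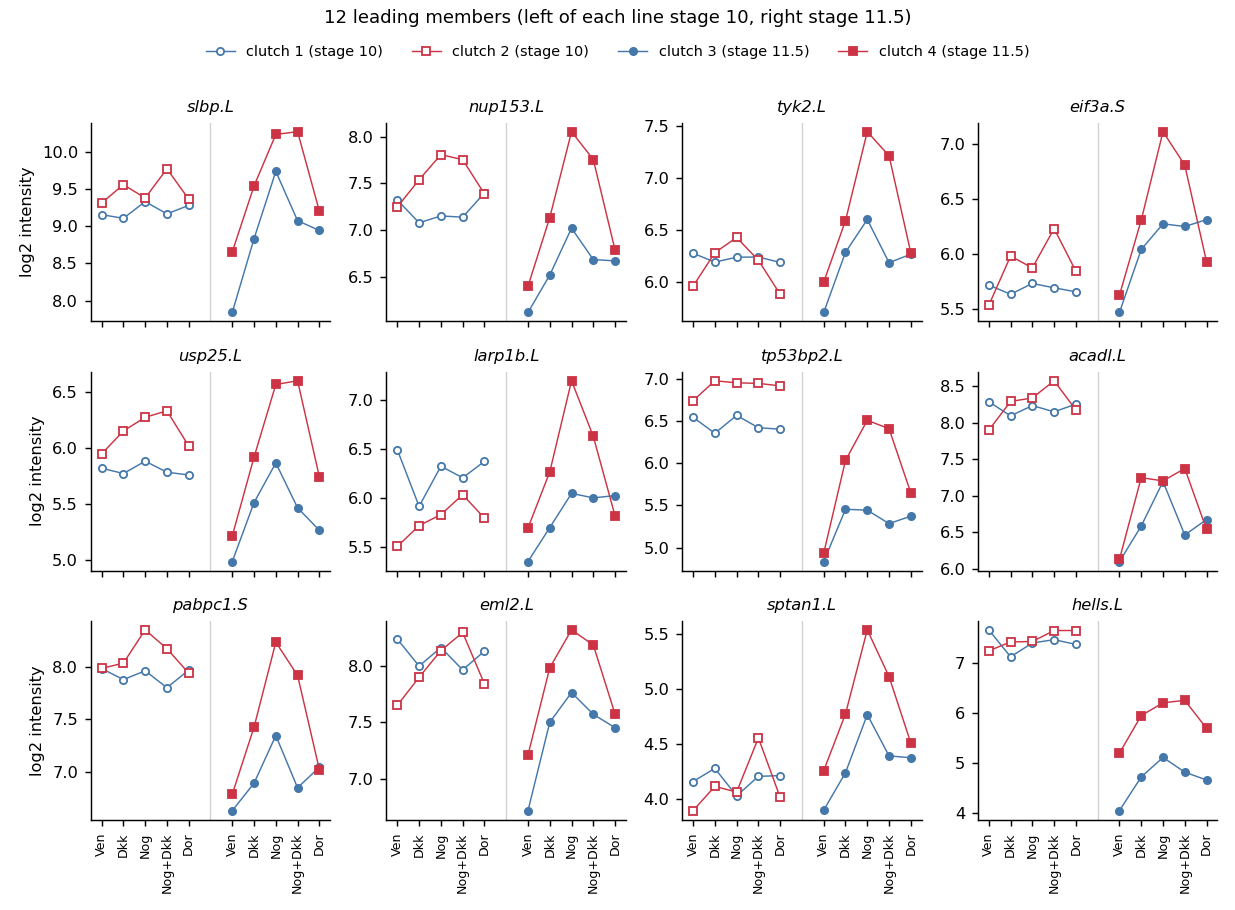
Log2 intensity (y axis) of the 12 named members with the largest late **Nog** minus **Ven** difference in each of the 20 arrays, by condition (x axis), with open symbols for stage 10, filled symbols for stage 11.5, and a line for each clutch. In the late clutches the **Ven** point is the lowest of each line, as for *slbp.L* at 7.84 and 8.65, and the **Nog+Dkk** point of clutch 4 stands near that of **Nog** for some genes (10.27 and 10.23 for *slbp.L*) and below it for others (6.63 and 7.20 for *larp1b.L*).

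Of the 90 members 19, or 21.1%, belonged to at least 1 of 16 functional lists, which held 10.6% of all probe sets. Among those with a symbol the shares were 25.3% and 17.3%. The lists were chosen with earlier results of these data known, so the higher shares among members can follow from that choice. They are given as a description and were not tested. No list held more than 4 members, and the lists named here lay within 0.21 of 0 in their median late **Nog** minus **Ven** difference. The list of RNA-binding and splicing genes (248 probe sets, 4 members) had a median late difference of -0.01, translation factors (93 probe sets, 1 member) -0.04, cell cycle genes (147 probe sets, 4 members) 0.03, and BMP and TGF-beta signaling (103 probe sets, 1 member) -0.07, beside -0.03 over all probe sets. The largest list medians were 0.21 for germ plasm and maternal genes (24 probe sets, no member) and 0.16 for JAK-STAT signaling (15 probe sets, 1 member).

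Other probe sets of the same genes mostly did not show the difference. The members' genes had 91 further probe sets, for 54 of the 74 genes, and 1 of them reached 1.5-fold in both late clutches. Their median late difference was 0.16, with 48 above 0 in both clutches (20.6% of all probe sets were) and 7 below 0 in both. For 43 of the 46 members with another probe set of their own symbol, no such probe set averaged 1.5-fold. The second probe set of *slbp.L* averaged 0.25, that of *nup153.L* 0.09, that of *cdc25a.L* -0.03 and that of *pabpc1.S* 0.09. The exceptions were *hells.L*, *eif3a.S* and *adam10.S*, whose other probe sets carry the same base name as the member and can share its signal. *adam10.S* encodes a membrane protease.

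The members also shared a feature of their names. In the array's probe-set names a letter, S or A, records the orientation assigned to the design sequence. Of the members 78, or 86.7%, carried S and 12 carried A, whereas S made up 45.3% of all probe sets. Among all probe sets, 1.30% of those with S and 0.189% of those with A passed the limit in both late clutches, although the median late difference was -0.02 for S and -0.03 for A. In the further probe sets of the members' genes the median was 0.25 for the 46 with S and 0.10 for the 45 with A. How this feature bears on the difference was not tested.

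The first comparison that the choice of members did not use asked whether adding Noggin to Dkk-1 moved them. In **Nog+Dkk** minus **Dkk** at stage 11.5, limma at an adjusted p under 0.1 called none of the 90 members in either direction, while it called 0.271% of all probe sets higher and 0.0646% lower. At an unadjusted p under 0.05, 11 members were higher and none lower (2.96% and 3.42% of all probe sets). Rank products at an FDR of 10% called no member either. Their share of calls over all probe sets is not given here, so this result cannot be set beside it. The members' median change was 0.16 and that of all probe sets -0.02. The clutches differed: the median was 0.02 in clutch 3, with 50 of 90 above 0, and 0.34 in clutch 4, with 89 of 90 above 0. Both clutches were above 0 for 49 members (23.1% of all probe sets were) and below 0 for none.

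Single members kept wide intervals. *slbp.L* changed by 0.49 ± 0.17 (SE of the limma fit, n = 2 clutches; 95% interval 0.13 to 0.84, adjusted p = 0.57), with 0.24 in clutch 3 and 0.73 in clutch 4. *smad1.L* changed by 0.15 ± 0.14 (adjusted p = 0.92) and *cdc25a.L* by 0.18 ± 0.14 (adjusted p = 0.91). For the median member the 95% interval reached 0.32 to either side of its change. The lowest adjusted p, 0.18, belonged to *gpatch11.L*, a G-patch protein singled out after its values were seen, with a change of 0.46 ± 0.11.

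At stage 10 the same comparison called no member, with 0.0129% of all probe sets higher and 0% lower, and the members' median was 0.05. No member had an unadjusted p under 0.05 there, against 1.63% of all probe sets higher and 0.665% lower. The difference between the late and the early change was called for no probe set, 0% in each direction. At an unadjusted p under 0.05 it was above 0 for 3 members and below 0 for none (1.21% and 2.54% of all probe sets), with a median of 0.12. As each stage came from its own clutches, stage and clutch cannot be told apart.

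This and the next comparison share their **Dkk**, **Dor** and **Nog+Dkk** arrays with the one above. **Dor** gave the level of the same transcripts on the organizer side. In **Dor** minus **Dkk** at stage 11.5 no member was called, against 1.19% of all probe sets higher and 0.394% lower. The members' median was -0.14, made of -0.01 in clutch 3 and -0.28 in clutch 4, and 7 members were below 0 and 1 above 0 at an unadjusted p under 0.05 (3.54% and 4.09% of all probe sets). *gata4.S*, a transcription factor of endoderm and heart singled out after its values were seen, had the largest positive change at 0.52 ± 0.19 (limma, adjusted p = 0.39).

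In **Nog+Dkk** minus **Dor** at stage 11.5, 1 member was called higher and none lower, against 0.155% of all probe sets higher and 0.381% lower. That member was *gpatch11.L*. It read 5.30 in **Nog+Dkk** and 4.82 in **Dor** in clutch 3 and 5.93 and 5.30 in clutch 4, a change of 0.56 ± 0.11 (limma, n = 2 clutches, adjusted p = 0.036). The call was lost without clutch in the model and with each stage fitted alone (0 members each), and a filter on brightness left the probe set out. At an unadjusted p under 0.05, 41 members were higher and none lower, against 3.04% and 4% of all probe sets. The members' median was 0.33, from -0.01 in clutch 3 and 0.63 in clutch 4. Without clutch 3 the fit called 48 members higher, among 265 probe sets in all, and without clutch 4 it called none, so the count rests on clutch 4.

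**Figure D3:**
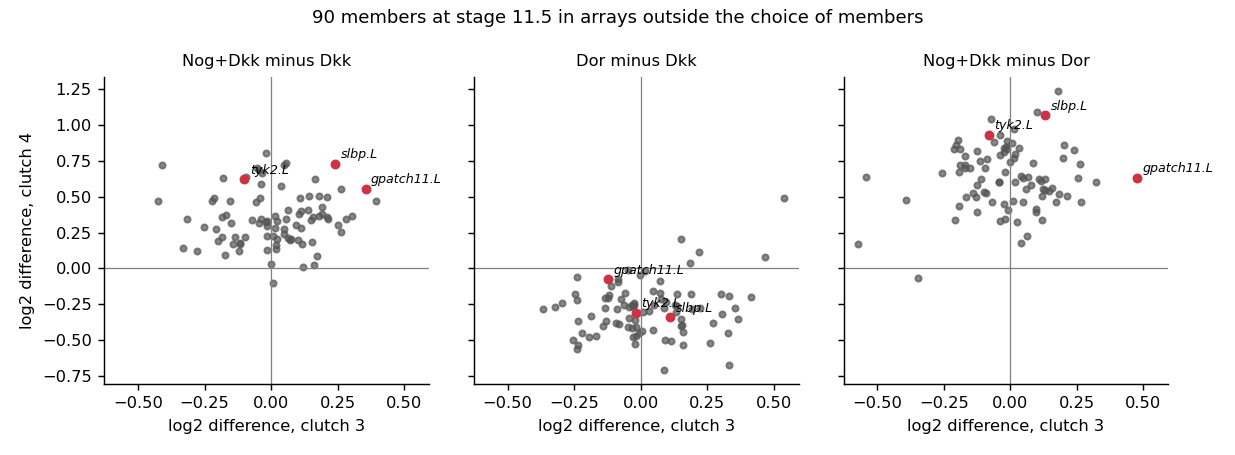
Log2 difference of each of the 90 members in clutch 3 (x axis) and in clutch 4 (y axis) at stage 11.5, for **Nog+Dkk** minus **Dkk**, **Dor** minus **Dkk** and **Nog+Dkk** minus **Dor**, with *slbp.L*, *tyk2.L* and *gpatch11.L* in red. Along the clutch 3 axis 50, 43 and 42 of the 90 points lie above 0, and along the clutch 4 axis 89, 5 and 89 do, with clutch 4 medians of 0.34, -0.28 and 0.63.

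Over gastrulation more members fell than rose when all 4 clutches were used. From stage 10 to stage 11.5, limma at an adjusted p under 0.1 called 29 members lower and 7 higher in **Dkk**, 27 lower and 10 higher in **Nog+Dkk**, and 38 lower and 8 higher in **Dor**. The shares of all probe sets called lower were 20.9%, 22.8% and 22.7%, and those called higher were 16.9%, 17% and 19.3%. The members' median changes were -0.30 in **Dkk**, -0.17 in **Nog+Dkk** and -0.43 in **Dor**, with -0.02, -0.11 and -0.06 over all probe sets. In all 3 conditions 25 members fell (27.8%, and 18.0% of all probe sets) and 7 rose (7.78%, and 13.9% of all probe sets). The counts moved when a clutch was left out. Those fits also had no clutch block, so the part of the clutch and that of the model cannot be told apart. Without clutch 3 more members rose than fell in **Nog+Dkk**. For the fits with a clutch left out, the shares of all probe sets that fell or rose were not recorded. They therefore do not show whether the members departed from all probe sets.

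The members that fell in all 3 conditions, named after their values were seen unless described above, were led by *hells.L*, *parn.L* and *cdc25a.L*. *hells.L* lay between 7.12 and 7.65 in the 10 arrays of stage 10 and between 4.06 and 6.25 at stage 11.5, and changed by -1.93, -2.01 and -2.32 in **Dkk**, **Nog+Dkk** and **Dor**, each with an SE of 0.32. *parn.L*, a ribonuclease that removes poly(A) tails, changed by -1.97, -1.85 and -2.11, each with an SE of 0.27. *cdc25a.L* lay between 9.63 and 10.09 at stage 10 and between 7.27 and 8.62 at stage 11.5, and changed by -1.77, -1.54 and -2.03, each with an SE of 0.22. The highest adjusted p of these in any condition was 0.00020. The early and late arrays did not overlap for either gene whose levels are given. The share of all probe sets without such an overlap was not recorded, so this is not shown to be particular to members.

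Others fell by less. *dck.2.L*, a kinase that salvages deoxynucleosides, changed by -1.44, -1.55 and -1.34 in the same order, *slc18a2.L*, a vesicular monoamine transporter, by -1.45, -1.42 and -1.59, and *acadl.L* by -1.27, -1.44 and -1.60. *ets1.L* changed by -1.02, -0.82 and -1.13, and *tp53bp2.L* by -0.92, -0.84 and -1.15. The signaling components *orai2.S*, a calcium channel, *ptpn12.S*, a tyrosine phosphatase, *taok3.L*, a kinase, and *pxn.S*, the focal adhesion protein paxillin, were also among the 25.

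Among the 7 that rose, *gata4.S* lay between 6.64 and 7.60 at stage 10 and between 7.45 and 9.27 at stage 11.5, with changes of 1.01, 1.35 and 1.18 (SE 0.38, highest adjusted p 0.050). *tram1.S*, of the channel that carries proteins into the endoplasmic reticulum, rose by 0.81, 0.53 and 0.58, and *c6orf62.L* by 1.00, 1.34 and 1.02. The other 4 had no symbol. *slbp.L*, *tyk2.L*, *nup153.L*, *usp25.L*, *smad1.L* and both *mycl* probe sets were not called in any of the 3 conditions. *smad1.L* changed by 0.24, 0.26 and -0.13, each with an SE of 0.23.

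**Figure D4:**
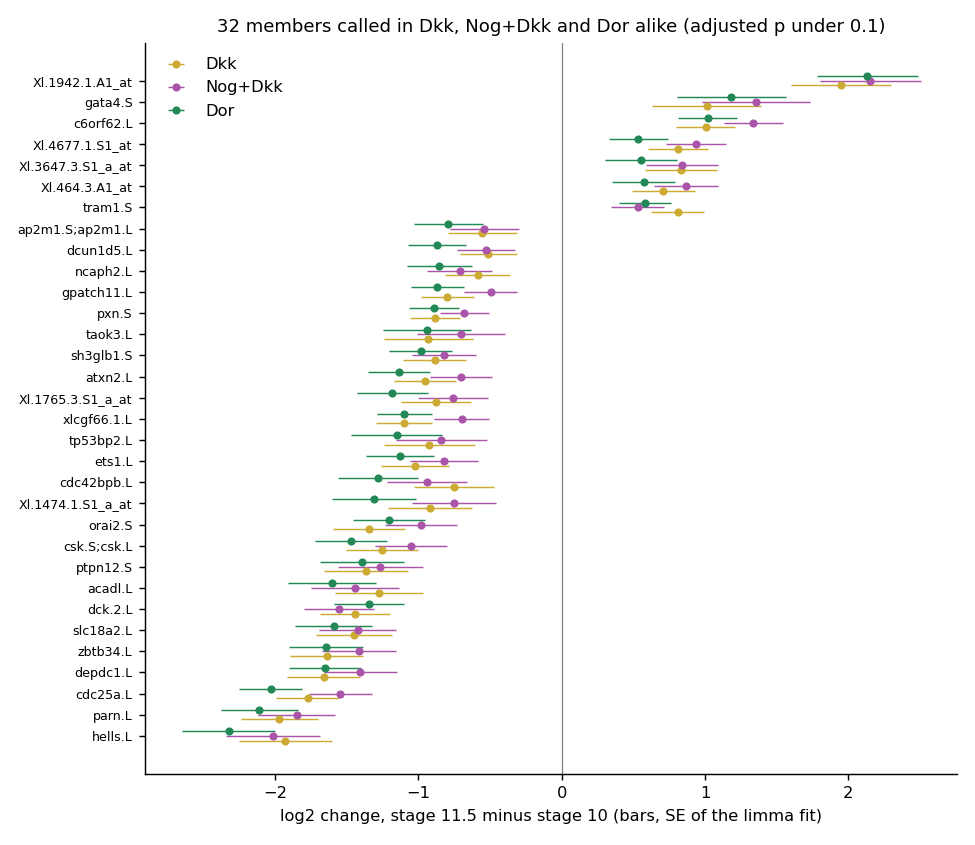
Log2 change from stage 10 to stage 11.5 (x axis) in **Dkk**, **Nog+Dkk** and **Dor** for the 32 members (y axis) called in all 3 conditions, with bars of 1 SE. The changes of the 25 that fell reach -2.32 for *hells.L* in **Dor**, and those of the 7 that rose reach 2.15, for a probe set with no symbol in **Nog+Dkk**.

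A measure of RNA quality, that of *gapdh* but not that of beta-actin, had the same lowest and highest late arrays as the members' medians. The rule chose the members for **Nog** above **Ven** in these clutches, so their lowest and highest arrays were largely fixed. The match is a description only. The array carries control probe sets at the 5' and 3' ends of the *gapdh* message, and the 5' minus 3' log2 signal is in common use as a sign of RNA integrity. In clutch 3 it was lowest in **Ven** at -1.40, followed by **Dor** at -1.15, **Dkk** at -1.1, **Nog+Dkk** at -0.97 and **Nog** at -0.77. In clutch 4 it was -1.0 in **Ven**, then -0.82 in **Nog+Dkk**, -0.81 in **Dor**, -0.76 in **Dkk** and -0.56 in **Nog**. **Ven** was the lowest and **Nog** the highest array of each late clutch, as in the members' medians. The conditions between them stood in another order in both clutches. In clutch 3 the members' median was higher in **Dor** (6.73) than in **Dkk** (6.68) and **Nog+Dkk** (6.70), while the *gapdh* measure was lower. In clutch 4 the members' median in **Nog+Dkk** (7.60) was nearly that in **Nog** (7.62), while for *gapdh* **Nog+Dkk** stood next to **Ven**. For beta-actin **Ven** was the lowest array in neither late clutch, and **Nog** was the highest in clutch 3 only. Unlike that of *gapdh*, the beta-actin 5' signal lay above its 3' signal in every array, by 2.35 and 2.41 in **Ven** of clutches 3 and 4. The *gapdh* control did not rise steadily towards its 3' end either. Its probe set for the middle of the message lay above that for the 3' end in every array, at 9.19 against 8.54 in **Ven** of clutch 3 and 8.89 against 8.01 in **Ven** of clutch 4. The worth of either control as a sign of RNA integrity here is uncertain and was not tested. The beta-actin measure less that of **Ven** was 0.25 and 0.26 for **Nog**, 0.22 and 0.28 for **Dkk**, -0.23 and 0.34 for **Nog+Dkk**, and 0.11 and -0.19 for **Dor**. At stage 10 the *gapdh* measure of **Nog** minus **Ven** was -0.20 in clutch 1 and 0.07 in clutch 2. The part of RNA quality in the members' difference was not tested.

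**Figure D5:**
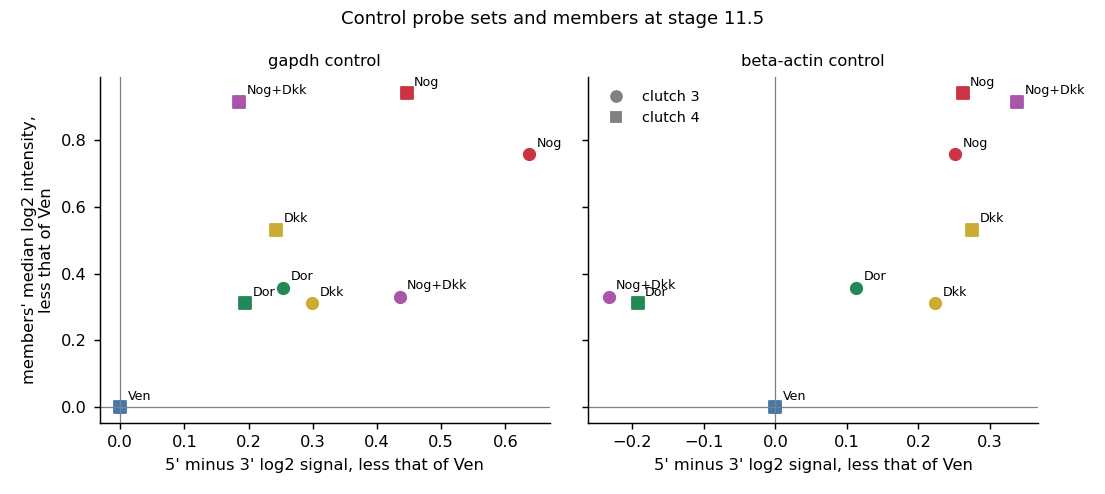
Members' median log2 intensity in each array of stage 11.5, less that of **Ven** of the same clutch (y axis), against the 5' minus 3' log2 signal of the *gapdh* and beta-actin controls, less that of **Ven** (x axis), with circles for clutch 3 and squares for clutch 4. **Nog** lies farthest right in the *gapdh* panel, at 0.64 and 0.45, and **Nog+Dkk** of clutch 4 lies high at only 0.19. The height of **Nog** above **Ven** on the y axis follows from the choice of members.

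Markers of other tissues also differed between **Nog** and **Ven**. Endoderm markers (13 probe sets) were higher in **Nog** for 13 of 13 in clutch 3 and 9 of 13 in clutch 4, with mean differences of 0.39 and 0.16. Among them is *gata4.S*, a member whose sign the rule had fixed. Their summed intensity was 4870 and 6761 in **Ven** and 6671 and 7846 in **Nog**. In **Nog+Dkk** minus **Dkk**, which the rule did not use, 2 of 13 endoderm markers were above 0 in clutch 3 and 9 of 13 in clutch 4. The means were -0.15 and 0.13. Germ plasm markers (5 probe sets) were higher for 4 of 5 and 3 of 5, with means of 0.67 and 0.04 and sums of 958 and 781 in **Ven** and 1264 and 726 in **Nog**. Epidermal markers (8 probe sets) were higher for 0 of 8 and 4 of 8, with means of -0.52 and -0.05, and ventral markers (20 probe sets) for 0 of 20 and 3 of 20, with means of -0.56 and -0.47. Some marker probe sets lay near the lowest intensity of the late **Ven** arrays, which was 5.17 in clutch 3 and 4.95 in clutch 4. The dimmest read 7.61 in the blood and ventral mesoderm list and 10.2 in the neural plate list. The other lists had mean differences of 0.27 and 0.07 (organizer), 0.33 and -0.05 (neural plate), 0.11 and -0.26 (paraxial mesoderm), and -0.15 and -0.19 (blood and ventral mesoderm). The part of tissue makeup in the members' difference was not tested.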

How the data were processed

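RNA from ventral or dorsal explants of *X. laevis* gastrulae was measured on 20 oligonucleotide arrays. The deposited intensities are the authors' RMA values, which are corrected for background, quantile normalized over the arrays and summarized for each probe set, and the RMA version is not given in the sources. The values were linear and were log2 transformed here, and 120 control probe sets were left out of the fits. Depth has no meaning for arrays, and the number of arrays limits the precision. Symbols came from a table of the array's annotation, updated through gene IDs, and 9304 of the tested probe sets had 1 symbol, 195 several and 5992 none. No sequences were used here.

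Comparisons that the choice of members did not use were fitted with limma 3.58.1 (R 4.3.3) on all 20 arrays, with clutch as a fixed block, with Benjamini-Hochberg adjustment over 15491 probe sets and a threshold of 0.1. Stage was compared with clutch as a random block, with 1 consensus correlation of 0.53 for all probe sets. The p-values and SEs of the stage changes rest on that shared value and on 2 clutches at each stage. Within a stage, arrays from the same clutch departed together from the means of their conditions, with correlations of 0.68 to 0.84 (stage 10) and 0.49 to 0.80 (stage 11.5), and the study drew all conditions of a replicate from 1 clutch, so clutch was kept as a pairing. Pools from 1 clutch share parents. With clutch as a fixed block, p-values and SEs rest on the spread left after condition and clutch (8 residual degrees of freedom). This spread was pooled over both stages and all 5 conditions, **Nog** and **Ven** included, and was drawn by limma towards that of all probe sets. For 2 arrays of stage 10 (**Dkk** and **Nog+Dkk**) the title gives clutch 2 and another label clutch 1, and the title was followed. The fit of **Nog+Dkk** minus **Dkk** with the fixed block, and rank products, were tried on simulated data. The fits of stage and those with **Dor** were not. Alternatives were other normalizations, variance models, thresholds and filters, rank products, and each clutch left out.

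The members and the functional lists were chosen with earlier results of these data known. Named were the 12 members with 1 symbol and the largest late difference, those called in the tested comparisons, up to 3 of each functional list, genes with several member probe sets, and those next to the limit. Roles stated for genes come mostly from mammals. Homeologs can share signal.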

Additional observations from a re-analysis of the deposited data

Results flagged for a closer look

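The 5' and 3' control probe sets of the array enter no comparison of conditions. Their 5' minus 3' log2 signal was higher in **Nog** than in the control **Ven** array of the same clutch at stage 11.5. The difference was 0.64 in clutch 3 and 0.45 in clutch 4 for *gapdh*, and 0.25 and 0.26 for beta-actin. It was not particular to **Nog**. For *gapdh* every other condition also lay above **Ven** in both clutches, **Dkk** by 0.30 and 0.24. For beta-actin **Dkk** lay above it by 0.22 and 0.28. At stage 10 the beta-actin difference of **Nog** was -0.34 in clutch 1 and 0.12 in clutch 2. The late **Nog** differences were brought up because a signal outside the main measurement exceeded its control in both clutches. No set of 4 or more samples of 1 kind existed in which a single array could be compared with the others of its condition.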

How the results depend on the processing

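Precision is limited by 2 clutches at each stage. No member was called in **Nog+Dkk** minus **Dkk** at either stage, or in its difference between stages, under any of the other settings listed in the methods that kept both late clutches, and with a clutch left out 0 to 1 member was called at stage 11.5. The members' median there stayed above 0, from 0.02 to 0.34 with a clutch left out, and was 0.20 with a member limit of 0.8. The rule itself, rerun after seeing the data, gave 92 probe sets under cyclic loess (76 of them members) and 88 under median centring (82 of them members).

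Without the replicate block (clutch not in the model), no probe set was called in **Nog+Dkk** minus **Dkk** at stage 11.5 or stage 10 (0 against 52 and 2), 26 against 245 in **Dor** minus **Dkk**, and 2 against 83 in **Nog+Dkk** minus **Dor**, where the 1 called member was lost (0). With each stage fitted alone these counts were 18, 9, 136 and 56, and again 0 members were called in **Nog+Dkk** minus **Dor**. With only the **Dkk**, **Nog+Dkk** and **Dor** arrays, 132 probe sets were called in **Nog+Dkk** minus **Dor**. At an adjusted p under 0.05, 30 probe sets were called in **Nog+Dkk** minus **Dkk** at stage 11.5 and 0 at stage 10, and 5 members against 8 rose with stage in **Dor**. The share of all probe sets that rose at this threshold was not recorded. A trended, robust variance gave 1 probe set at stage 10 and 1 in the difference between stages (0 before). Cyclic loess, median centring, and leaving out the 2 arrays with conflicting clutch labels (chosen after seeing the data) each gave 0 at stage 10.

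Among probe sets above the median brightness, which are fewer, 143 were called in **Dor** minus **Dkk** and 41 in **Nog+Dkk** minus **Dor** (0 members). For stage this filter called 3737, 3871 and 4116 probe sets in **Dkk**, **Nog+Dkk** and **Dor**, against 5857, 6158 and 6514. It left 15, 14 and 23 members that fell, and 6 and 4 that rose in **Nog+Dkk** and **Dor**. Median centring called 17 members that rose in **Nog+Dkk**, against 10 in the main fit. For these settings the shares of all probe sets that rose or fell were not recorded. The counts therefore do not show whether the members departed from all probe sets.

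Leaving out a clutch gave 111 to 337 probe sets in **Dor** minus **Dkk**, 212 to 265 in **Nog+Dkk** minus **Dor**, 48 to 49 in **Nog+Dkk** minus **Dkk** at stage 11.5, 0 at stage 10 and 0 to 9 in the difference between stages. Called members were 0 to 48 higher in **Nog+Dkk** minus **Dor** and 0 to 1 lower in **Dor** minus **Dkk**. With stage, in fits chosen after seeing the data, 4 to 13, 3 to 28 and 2 to 5 members rose and 10 to 39, 7 to 44 and 17 to 40 fell in **Dkk**, **Nog+Dkk** and **Dor**, among 4035 to 4554, 4249 to 5087 and 4594 to 5513 probe sets. A condition left with 1 array was assumed to vary like the others, and the stage fits with a clutch left out had no clutch block.

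In **Nog+Dkk** minus **Dkk** at stage 11.5, 9 named members turned below 0 without clutch 4: their changes with a clutch left out were -0.10 to 0.62 for *tyk2.L*, -0.047 to 0.68 for *usp25.L*, -0.17 to 0.38 for *tp53bp2.L*, -0.12 to 0.12 for *acadl.L*, -0.043 to 0.49 for *pabpc1.S*, -0.32 to 0.34 for *dhx33.L*, -0.16 to 0.47 for *cenpn.L*, -0.017 to 0.30 for *smc6.1.L* and -0.020 to 0.32 for *smad1.L*. *acadl.L* was at -0.00098 under cyclic loess. The cause of these changes was not tested.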
